A study of Schmidtea mediterranea with 2 samples.

Results

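The barcodes outside the tissue were the positions of a planarian Slide-seqV2 puck that had few barcodes with RNA around them. They were chosen by measured values, namely the UMIs of their neighbours. Of the 50 barcodes nearest to each barcode, the share that reached 10 UMIs was taken from the first run before correction, and a share under 10% placed the barcode outside. By this rule 33702 of the 83348 barcodes lay outside (40.4%), 20546 with a share of at least 25% lay over tissue, and 29100 lay between. The sample was fragments of Schmidtea mediterranea, a freshwater flatworm, embedded in OCT, frozen and cut onto 1 puck. A single library was made and sequenced in 2 runs, and the labels name no genotype, treatment or age. The data are UMI counts (counts of distinct captured molecules) per gene and barcode in 4 tables, namely the first run or both runs, each once as originally processed (the original version) and once with barcode reads corrected by Syrah. Unless stated otherwise, values are from the Syrah-processed version of both runs. With 1 library there were no replicates, so no test between conditions was possible, and the 95% intervals given here cover counting error only.

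In Slide-seqV2 each bead carries capture oligonucleotides that end in a run of T, which binds the poly(A) tail of mRNA, and a barcode that tells where on the puck the bead lies. RNA that leaves cut cells can settle on beads that no tissue covers, and a read whose barcode is misread can also be placed there. The flatworm has a branched intestine and a large population of dividing stem cells called neoblasts. The study lists genes for both, with mat2a as the intestine marker and piwi-1, a gene of the Piwi family that neoblasts express, as the stem cell marker.

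The barcodes that carried the findings below are shown first, 5′ to 3′ as listed for the puck. The barcode has 14 bases, and on the oligonucleotide a fixed linker separates its first 8 bases from its last 6. In the original version of both runs, the first pair held the most UMIs of all outside barcodes, and capitals mark each T.
Outside, run of T: TTTTTTTTTTTTTT
Outside, nearly a run of T: TgTTTTTTTTTaaa
The next pair differed by 1 substitution, T9A counted from 1 at the 5′ end and marked in capitals, and lay 2.87 units apart.
Outside, member with UMIs in the original version: cagcacgcTcaccc
Outside, member with UMIs in the Syrah-processed version: cagcacgcAcaccc
The last 4 are 2 outside barcodes that match a barcode over tissue if 1 base in its first 8 is missing, each followed by that tissue barcode. Capitals mark the bases of the outside barcode that the shifted tissue barcode gives. The match left its other bases free, including base 8, which the first base of the fixed linker would fill after such a loss. The 2 outside barcodes shown differ at base 8, so at most 1 of them has that linker base.
Outside, first shifted barcode: AGATCCTgTTCTTg
Over tissue, first: agatccctcttctt
Outside, second shifted barcode: CTAACTAtCAGTGa
Over tissue, second: ctaacctatcagtg

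Outside barcodes held 59321 UMIs, which was 1.76% of the table. Their mean was 1.76 UMIs per barcode (95% interval 1.75 to 1.77, exact Poisson), against 26.3 on barcodes between and 123.6 over tissue. Of the outside barcodes, 9858 (29.3%) held a UMI, compared with 53.6% over tissue. A barcode without one here could hold UMIs in the other version, where 11983 outside barcodes held a UMI, of which 6841 held one in both. Many outside barcodes had a near-identical partner at almost the same position. In all, 12440 outside barcodes (36.9%) lay less than 10 units from a barcode 1 substitution away. Of these, 9723 held no UMI, out of 23844 outside barcodes without one. By the paper's account, Syrah keeps 1 bead of each group of barcodes that are 1 substitution and under 10 µm apart. It redirects the other barcodes of the group to that bead. How many of the empty duplicates arose in this way was not tested, and the unit of the deposited positions is not stated. The share of such duplicated barcodes was about the same over tissue, at 35.1%.

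**Figure D1:**
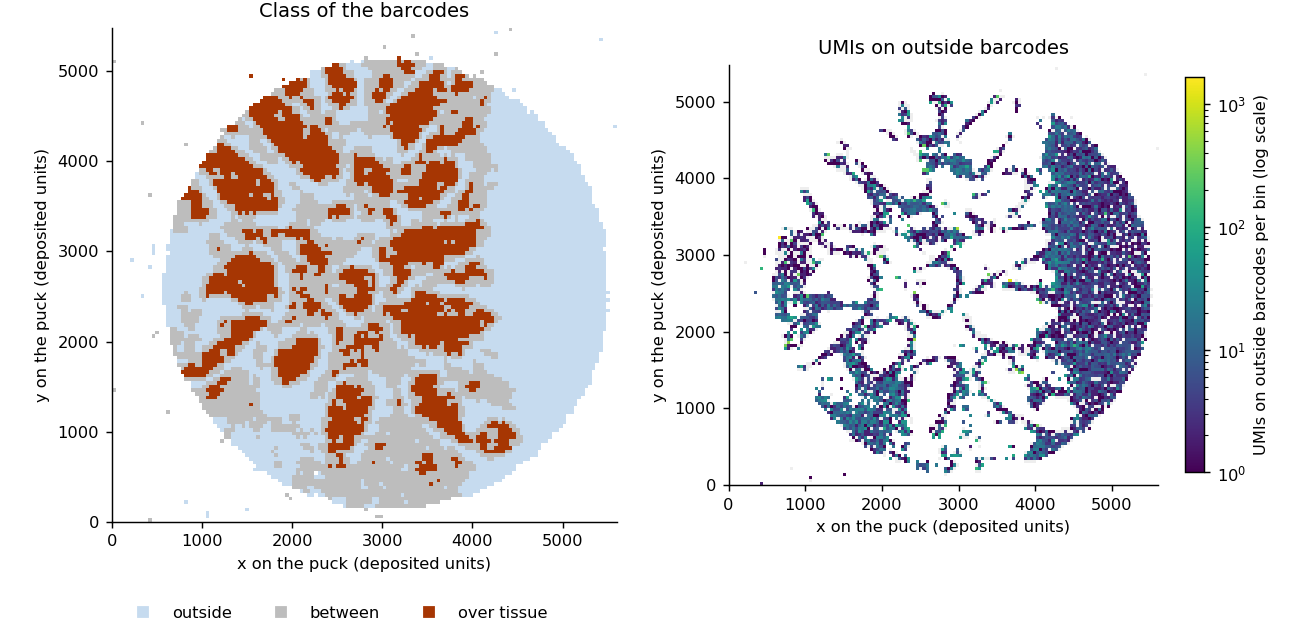
Class of the barcodes (left) and UMIs on outside barcodes (right, colour on a log scale) in bins of 40 units, over the x and y position on the puck in the deposited units. The left panel shows the class most barcodes of a bin belong to; in the right panel grey bins hold outside barcodes without a UMI and white bins hold no outside barcode. Outside barcodes formed strips between the fragments and 1 large area along the right side.

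The UMIs were spread unevenly over the barcodes that held any. The 4326 barcodes with 1 UMI held 7.29% of the outside UMIs, and the 3293 with 2 to 4 held 14.7%. In contrast, 944 barcodes with 10 to 49 UMIs held 30.9%, and 143 with at least 50 held 34.5%. The richest was cagcacgcAcaccc with 1363 UMIs, followed by a barcode that lay 68.9 units from tissue and held 1135. Together, 1087 barcodes with at least 10 UMIs held 38762 of the 59321 UMIs. At these positions a lone cell or small fragment and free RNA cannot be told apart.

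The limit of the rule crossed no gap in the values. Barcodes with none of 50 neighbours at 10 UMIs held 0.806 UMIs on average, those with 4 of 50, just inside the limit, held 5.08, and those with 5 of 50, just outside it, held 7.67. The shares of the marker lists varied over the steps up to this limit, from 6.47% at 3 of 50 to 7.48% at 1 of 50 for the stem cell list and from 2.54% at 2 of 50 to 3.19% at 4 of 50 for the intestine list. Across the limit itself they hardly changed. The stem cell list was 7.42% of the UMIs at 4 of 50 neighbours and 7.37% at 5 of 50, and the intestine list was 3.19% and 3.20%.

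UMIs per outside barcode fell with the distance to the nearest barcode over tissue, which ran from 24.5 to 1474 units. In 5 equal bins of the outside barcodes from near to far, with limits at 90.8, 158, 347 and 680 units, the means were 2.89, 2.10, 2.04, 1.05 and 0.723 UMIs per barcode. The nearest bin thus held 4.0 times as many UMIs per barcode as the farthest (95% interval 3.88 to 4.13). The rule uses the UMIs of neighbours, so the fall with distance was not independent of it. The size of this ratio also rested on the rule, as it was 10.2 with shares over 25 neighbours and 1.92 with an outside limit of 5%. The difference lay in the rich barcodes. In the nearest bin, 78 barcodes with at least 50 UMIs held 11449 UMIs, and in the farthest bin 6 such barcodes held 638. Among barcodes with fewer than 10 UMIs the same bins held 0.521, 0.648, 0.806, 0.679 and 0.501 UMIs per barcode, which rose to the middle bin and then fell. With bins drawn anew among these poor barcodes, the nearest over farthest ratio was 1.04 (95% interval 0.987 to 1.09). The share of barcodes with any UMI was also similar at both ends, 26.7% in the nearest and 26.2% in the farthest bin.

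**Figure D2:**
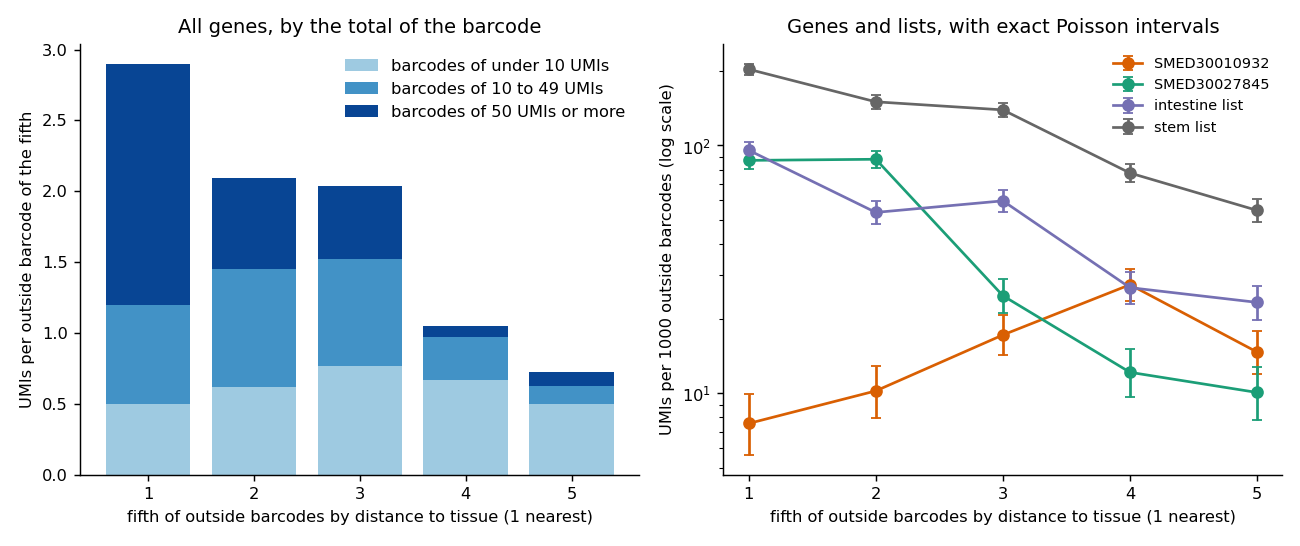
UMIs per outside barcode by bin of distance to tissue (left), split by the total of the barcode, and UMIs per 1000 outside barcodes on a log scale for 2 genes and both lists (right), with exact 95% Poisson intervals. The pale bars of barcodes with fewer than 10 UMIs stay between 0.497 and 0.771 UMIs per barcode of the bin, while the bars of richer barcodes shrink with distance.

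The distance was tied to the place on the puck. Outside barcodes linked at 30 units or less formed 176 connected areas, and the largest, on the side of the puck without fragments, held 19108 barcodes (56.7% of the class). This open side held 1.11 UMIs per barcode, and the other outside areas 2.61. With bins drawn anew within each, the ratio differed between them. Within the other areas the nearest over farthest ratio was 1.15 (95% interval 1.11 to 1.19), and within the open side it was 3.02 (95% interval 2.89 to 3.15). In the bins of all outside barcodes, the open side fell from 3.61 to 0.723 UMIs per barcode, and the other areas had 2.75, 2.35, 3.08 and 1.95 in the nearest 4 bins, with only 12 barcodes in the farthest. Among the 11 other areas with at least 200 barcodes, the mean ran from 0.619 to 4.45 UMIs per barcode.

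The pooled profile of the outside barcodes was close to that of the tissue in order. Across the 319 genes with at least 20 UMIs expected outside if shares were equal, the Spearman correlation of the gene shares was 0.859. Genes are not independent replicates, and both profiles come from 1 library. The correlation was 0.700 at a tissue limit of 0.50, which left 451 barcodes over tissue. Under the other alternatives it ran from 0.834 to 0.913. The most abundant gene over tissue made up 14.8% of the UMIs there and 17.5% outside, and the 10 most abundant made up 31.0% and 34.2%. The ratio for these 10 was 1.10 (95% interval 1.09 to 1.12), but it was 0.856 (95% interval 0.844 to 0.867) in the original version of both runs, so its direction depended on the version. Outside, 6937 genes had a UMI, against 20949 over tissue. Only 90 genes were seen outside and not over tissue, with 95 UMIs in all and at most 4 each.

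Most genes had a lower share outside. The median ratio of shares, outside over tissue, was 0.835 over the 319 genes (quartiles 0.696 and 0.996). Of these genes, 67 (21.0%) had a share outside at most 1/1.5 of that over tissue, and 13 (4.08%) had a share at least 1.5 times as high. The latter number was 43 in the original version of both runs, where 440 genes passed the filter, and 18 in that version without the barcodes of at least 9 T. These counts describe a contrast that shares UMIs with the rule, and with 1 library they have no replicate check. Poor outside barcodes alone, with fewer than 10 UMIs, were also set against all barcodes over tissue. Here 96 genes passed the filter, of which 29 were lower and 5 higher.

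**Figure D3:**
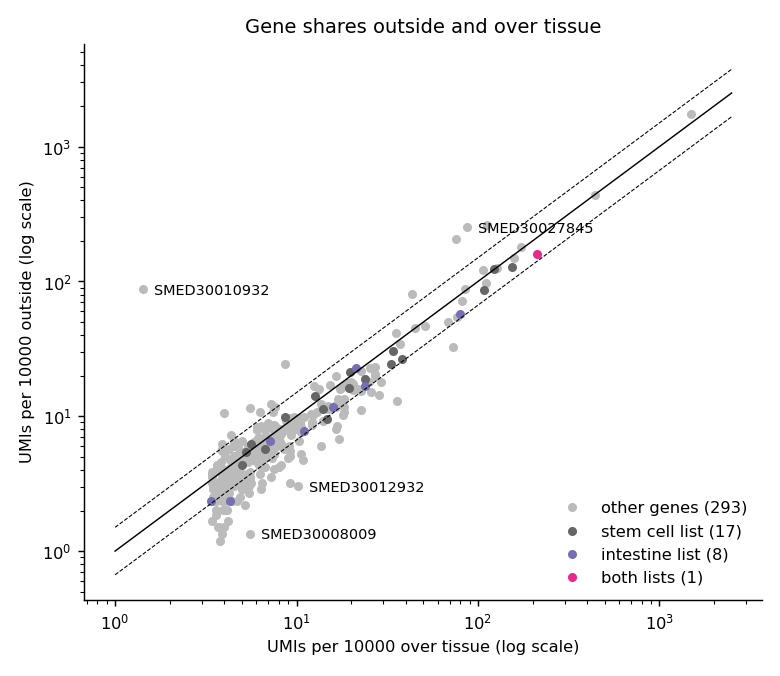
UMIs per 10000 outside against UMIs per 10000 over tissue for the 319 genes that passed the filter, both on log scales, with equality as a solid line and 1.5 times either way as dashed lines. Most genes lie a little below equality, SMED30010932 lies far above it, and no gene of the lists lies above the upper line.

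The intestine list made up 2.94% of the UMIs outside (1747 UMIs) and 3.89% over tissue, a ratio of 0.757 (95% interval 0.721 to 0.793). Of its 15 genes, all seen outside, 9 passed the filter, of which 1 was called lower and 0 higher, next to the 21.0% and 4.08% of all tested genes. The median ratio of the 9 was 0.712, below the 0.835 of all tested genes. mat2a, known as an enzyme that makes S-adenosylmethionine, had 14 UMIs outside and 863 over tissue, a ratio of 0.695 (95% interval 0.378 to 1.17), which does not set it apart from 1. The gene with most UMIs on the list, SMED30016196, had 945 outside and 54013 over tissue, a ratio of 0.749 (95% interval 0.702 to 0.799). It is on both lists, and without it the intestine ratio was 0.766.

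The stem cell list made up 7.09% outside (4208 UMIs) and 8.44% over tissue, a ratio of 0.840 (95% interval 0.815 to 0.866). Of its 22 genes 18 passed the filter, of which 1 was called lower and 0 higher, and their median ratio of 0.844 was near the 0.835 of all tested genes. piwi-1 had 37 UMIs on 34 outside barcodes and 1427 UMIs over tissue, a ratio of 1.11 (95% interval 0.779 to 1.54). Thus piwi-1 made up 6.24 of 10000 UMIs outside and 5.62 of 10000 over tissue, which counting error did not separate. The lowest ratio on the list among genes that passed was 0.649, and the highest was 1.15.

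**Figure D4:**
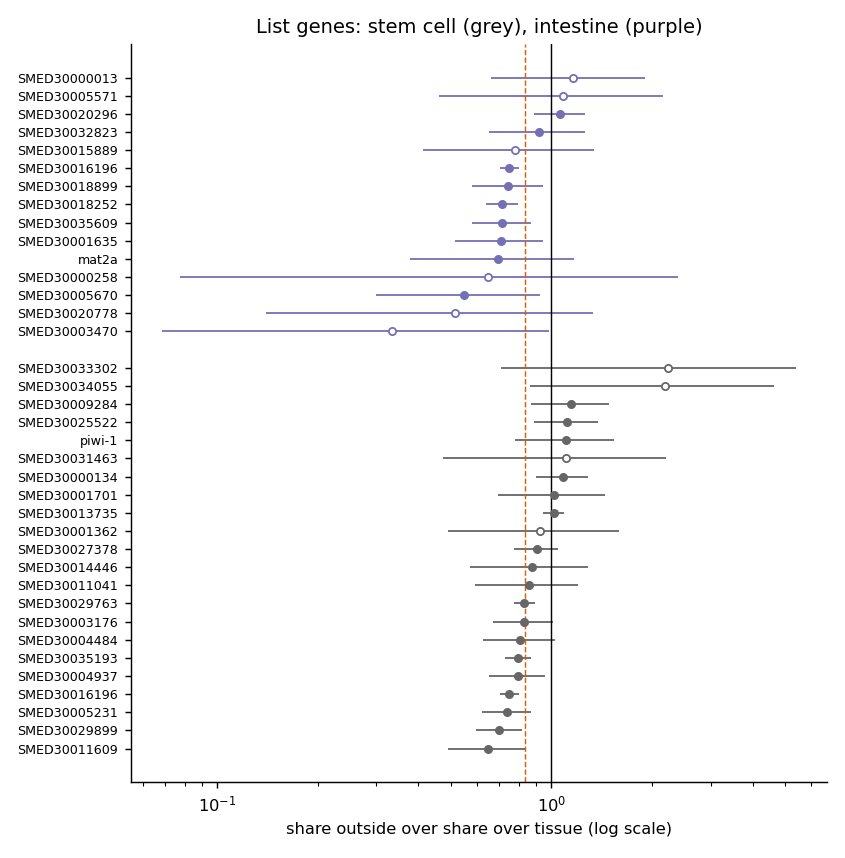
Ratio of shares, outside over tissue, on a log scale, with exact 95% intervals, for the 22 genes of the stem cell list and the 15 of the intestine list. Open points did not pass the filter, the solid line marks 1 and the dashed line the median of all tested genes (0.835); SMED30016196 is on both lists.

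The shares of the lists were also compared over the range of barcode totals. On outside barcodes with 1 UMI, the stem cell list made up 7.70% (95% interval 6.92% to 8.53%) and the intestine list 2.96% (95% interval 2.47% to 3.51%). On outside barcodes with 2 to 4, 5 to 9, 10 to 49 and at least 50 UMIs, the stem cell list made up 7.11%, 6.58%, 7.21% and 7.05%. On the same barcodes the intestine list made up 2.95%, 2.47%, 2.68% and 3.36%. Its 95% interval on the richest (3.11% to 3.61%) lay above those on 5 to 9 (2.13% to 2.85%) and 10 to 49 UMIs (2.45% to 2.92%). Among the richest, 1 barcode held 1135 UMIs with 6.34% on the intestine list, and the share without it was not computed. Barcodes over tissue that held only 1 UMI gave 7.69% and 2.75%, from 1417 UMIs, and those with 2 to 4 gave 7.89% and 2.49%. Over tissue, barcodes with 5 to 9, 10 to 49 and at least 50 UMIs gave 8.63%, 7.90% and 8.46% for the stem cell list. For the intestine list they gave 4.03%, 3.92% and 3.89%. From 5 UMIs up, both lists thus had higher shares over tissue than on outside barcodes of like totals. With distance the stem cell list stayed between 6.83% and 7.57% in the 5 bins, and the intestine list between 2.54% and 3.31%, with no order from near to far. On the open side the shares were 7.77% and 3.30%, and in the other areas 6.71% and 2.75%.

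The highest ratio among the genes that passed the filter belonged to SMED30010932, which the files do not name. It was also the 1 gene of the 319 that passed only through its UMIs outside, since its share over tissue alone gave 8.43 expected UMIs, and without it 12 genes were higher. It had 520 UMIs outside and 361 over tissue, so its share was 87.7 of 10000 UMIs outside and 1.42 of 10000 over tissue, a ratio of 61.7 (95% interval 53.8 to 70.7). Its mean density per class differed far less. It had 15.4 UMIs per 1000 barcodes outside (95% interval 14.1 to 16.8), 14.1 between and 17.6 over tissue (95% interval 15.8 to 19.5). The UMIs lay on 417 outside barcodes, with at most 10 on 1 barcode. Outside, 62.5% of them lay on barcodes with at most 4 UMIs of other genes, which were 31499 of the 33702 outside barcodes. Over tissue 73.1% lay on barcodes with at least 50, which were 5920 of the 20546 there. Per 1000 barcodes the gene had 10.3 UMIs on outside barcodes with at most 4 UMIs of other genes and 155 on those with at least 50. The same values over tissue were 2.66 and 44.6.

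SMED30010932 did not fall with distance as the total of all genes did, and its density was not level within the class. Of its outside UMIs, 377 lay on barcodes with fewer than 10 UMIs. On such barcodes the total of all genes also differed little between the ends, at 0.521 UMIs per barcode in the nearest and 0.501 in the farthest bin. There the gene had 34, 39, 73, 143 and 88 UMIs from near to far. From the nearest to the farthest bin it had 7.57, 10.2, 17.2, 27.4 and 14.7 UMIs per 1000 barcodes, so it was highest in the bin next to the farthest. Its share was 188 of 10000 UMIs on the open side (95% interval 170 to 208) and 31.5 of 10000 in the other areas (95% interval 26.1 to 37.7). Against the tissue, its ratio was 133 on the open side alone and 22.2 without it, and with the original version of both runs it was 35.3. In the original versions it had 391 UMIs outside in the first run and 444 in both runs, against 237 and 295 over tissue.

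The second highest ratio, for SMED30027845, had the opposite arrangement. It had 1497 UMIs outside and 22081 over tissue, a ratio of 2.90 (95% interval 2.75 to 3.06), which was 1.81 on the open side alone. Its share also varied with the total of the barcode in both classes. On barcodes with 0 to 4, 5 to 9, 10 to 49 and at least 50 UMIs of other genes, it was 428, 281, 224 and 150 of 10000 outside. Over tissue it was 365, 155, 218 and 83.5 of 10000. Its density fell from 1075 UMIs per 1000 barcodes over tissue to 44.4 outside, and by bin it was 87.1, 88.0, 24.8, 12.2 and 10.1. The open side had 157 of 10000 UMIs and the other areas 305 of 10000, and in the 11 other areas with at least 200 barcodes the share ran from 194 to 1183 of 10000. A single barcode with 450 UMIs held 109 of this gene, and without it the ratio was 2.71 (95% interval 2.57 to 2.86). The genes ranked 3 and 4 also had their most UMIs on that barcode, and their ratios without it were 2.58 and 2.54.

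The other genes higher outside fell into those spread over many barcodes and those set by a few. The gene ranked 6 had 1558 UMIs on 1047 outside barcodes, with a ratio of 2.35 (95% interval 2.24 to 2.48). Its density outside hardly changed with distance, at 43.3, 38.9, 48.2, 49.1 and 51.6 UMIs per 1000 barcodes, whereas over tissue it was 1379. The gene ranked 8 had 480 UMIs and a ratio of 1.88 (95% interval 1.71 to 2.06), and was likewise level, at 12.6 per 1000 barcodes in the nearest bin and 12.8 in the farthest. In contrast, the gene ranked 5 had 30 of its 63 outside UMIs on 1 barcode and the gene ranked 7 had 23 of 68 on the same one. Without it their ratios were 1.40 and 1.39, below the 1.5 times used for a call. The genes ranked 10, 12 and 13 also fell below it without the barcode on which each had its highest count, to 1.48, 1.41 and 1.44, so that leaving out 1 barcode ended 5 of the 13 calls. With only outside barcodes of fewer than 10 UMIs set against all barcodes over tissue, the gene ranked 6 and SMED30027845 had ratios of 3.86 and 3.56. SMED30010932 had 129. These ratios did not compare barcodes of like totals. On barcodes with at most 4 UMIs of other genes, the gene ranked 6 had 564 of 10000 UMIs outside and 133 over tissue. On such barcodes SMED30027845 had 428 and 365, with overlapping intervals, and SMED30010932 had 246 and 73.9.

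At the other end, SMED30008009 had 8 UMIs outside, each on its own barcode, and 1402 over tissue, a ratio of 0.244 (95% interval 0.105 to 0.483). SMED30012932 had 18 UMIs on 18 outside barcodes and 2579 over tissue, a ratio of 0.299 (95% interval 0.177 to 0.473). Over tissue SMED30008009 was seen on 541 barcodes with up to 28 UMIs on one, and SMED30012932 on 557 with up to 118. Outside neither had over 1 UMI on any barcode.

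Far and near outside barcodes were compared directly, pooling the farthest 2 bins (11958 UMIs) and the nearest 2 (33632 UMIs). Of 50 genes with at least 20 UMIs expected in the far pool, 8 (16.0%) had a share at least 1.5 times as high far from tissue and 8 (16.0%) at most 1/1.5 of that near it. Among the 6 tested genes that were higher outside than over tissue, 3 were higher far and 3 lower. None of the 11 tested list genes passed either limit. SMED30010932 was 6.66 times as high far from tissue (95% interval 5.36 to 8.31), and SMED30027845 was 0.358 times as high (95% interval 0.300 to 0.424). Of the 50 genes, 4 passed only through their UMIs far from tissue, among them the gene with the highest ratio (112 and 32 UMIs). By the near share alone 48 genes passed, of which 6 were higher and 9 lower far from tissue.

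Whether outside barcodes carried the profile of the nearest fragment was asked with the 2 largest tissue pieces of 13, which had 1963 and 1902 barcodes. Each outside barcode was assigned to its nearest piece at any distance, so it need not lie beside it. This gave 6826 outside barcodes to the first piece and 1049 to the second. By the tissue UMIs, 20 genes were at least 1.5 times as high in the first piece and 32 in the second. Of these, 25 had at least 5 UMIs in total over the outside barcodes nearest to the 2 pieces, counted together. On these barcodes 12 of the 25 differed in the direction of the tissue. The median ratio outside, turned in the direction of the tissue, was 0.996, against 1.71 over tissue for the same genes. In the pooled UMIs, genes higher in the first piece had a ratio of 0.906 (95% interval 0.674 to 1.23) and genes higher in the second 1.33 (95% interval 0.961 to 1.82). Both pooled intervals included 1, with 8056 and 3210 UMIs on the outside barcodes assigned to the 2 pieces. The median varied with the rule. It was 1.39 with 25 neighbours (24 of 36 genes followed the tissue) and 1.43 at an outside limit of 5% (9 of 14). It was 1.24 with neighbours counted after Syrah (21 of 35) and 2.04 on poor barcodes alone (5 of 9). With duplicated barcodes summed it was 0.842 (14 of 31), and without the open side 0.8945 (4 of 12).

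The version of the data changed outside and tissue barcodes in opposite directions. For both runs, outside barcodes held 83855 UMIs before correction and 59321 with Syrah, a change of -29.3% (95% interval -30.0% to -28.5%), whereas over tissue the change was 29.0% (95% interval 28.8% to 29.3%). The classes were set from the original first run. With classes set from the Syrah-processed version of both runs instead, the outside change was -40.0% and the tissue change 27.1%. Adding the second run to the Syrah-processed first run raised the outside UMIs by 13.9% (95% interval 12.5% to 15.2%) and the tissue UMIs by 7.84% (95% interval 7.65% to 8.03%). The versions share reads, so these intervals treat them as independent when they are not.

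Most of the UMIs lost outside had been on barcodes rich in T. The 184 outside barcodes with at least 9 T held 19952 UMIs in the original version of both runs, which was 23.8% of the outside UMIs, and 389 in the Syrah-processed version. Their mean was 108 UMIs per barcode in the original version and 2.11 after Syrah, with medians of 5 and 0. Outside barcodes with at most 2 T went the other way, from 1.49 to 1.83. Without the barcodes of at least 9 T the outside change was -7.78%.

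**Figure D5:**
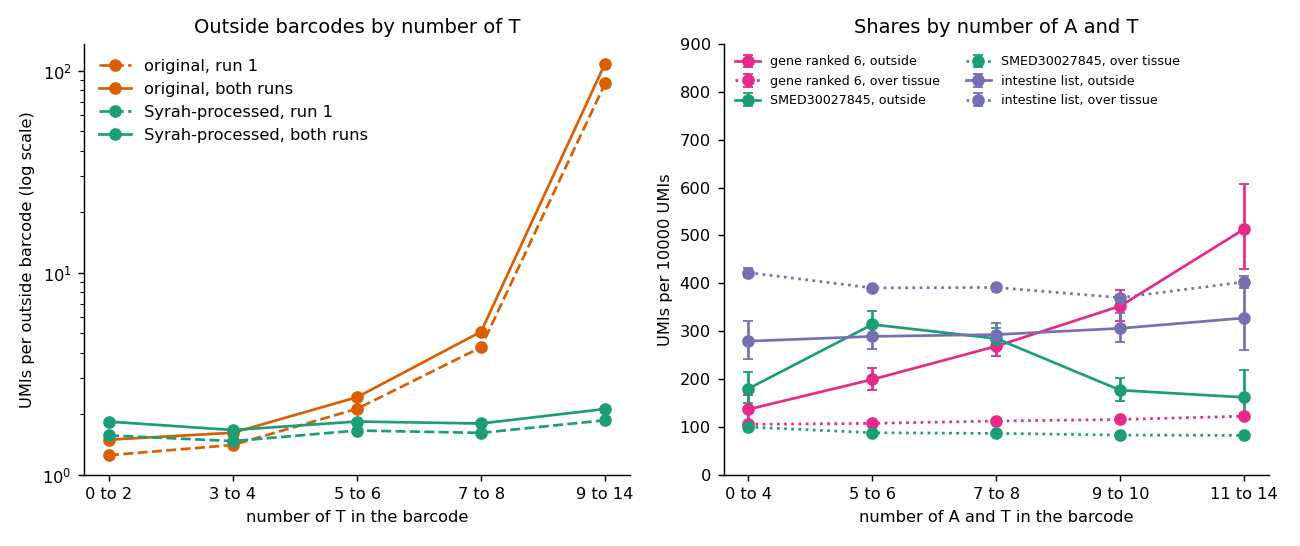
UMIs per outside barcode by number of T in the barcode in the 4 tables (left, log scale, means without intervals), and UMIs per 10000 UMIs by number of A and T in the barcode (right, exact 95% intervals) for the gene ranked 6, SMED30027845 and the intestine list. In the original versions the mean rises to 108 UMIs per barcode at 9 or more T, and the share of the gene ranked 6 rises with A and T outside and stays near level over tissue.

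A single barcode accounted for most of this. The run of T, TTTTTTTTTTTTTT, held 9907 UMIs in the original first run and 12122 in the original version of both runs, but 6 and 7 after Syrah. The nearly pure run TgTTTTTTTTTaaa fell from 2016 to 1. The RNA on the run of T was not a copy of the tissue profile. Its intestine share was 1.43%, its stem cell share 4.48% (95% interval 4.12% to 4.86%), and the most abundant tissue gene made up 1.20% of it, compared with 14.6% over tissue in the same version. Over 65 genes the Spearman correlation with the tissue shares was 0.295, while for the other outside barcodes it was 0.904 over the same genes.

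In some pairs a loss on 1 barcode stood beside a gain of similar size on a partner. Of the pair that differs by T9A, cagcacgcTcaccc held 1231 UMIs and cagcacgcAcaccc 10 in the original version of both runs, and 0 and 1363 after Syrah. Both members lay outside, so this pair moved UMIs within the class. It was among the duplicated barcodes described above, of which Syrah keeps 1 per group. The first shifted barcode, AGATCCTgTTCTTg, held 762 UMIs in the original version and 8 after Syrah, and its tissue barcode agatccctcttctt, 2054 units away, went from 7 to 819. The second, CTAACTAtCAGTGa, went from 106 to 0, and its tissue barcode ctaacctatcagtg, 933 units away, from 0 to 107. Of the 3 other shifted barcodes with most UMIs in the original version, 1 fell from 145 to 13 while its tissue barcode rose from 1640 to 1809. Another fell from 64 to 1 while its tissue barcode also fell, from 194 to 171, and the last went from 69 to 70.

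Barcodes of this kind were few. There were 113 outside barcodes that 1 substitution or 1 missing base separates from a barcode over tissue with at least 100 UMIs after Syrah. Before correction, with both runs, they held 14.1 UMIs per barcode, against 2.45 on the other outside barcodes, but 762 of their 1594 UMIs were on AGATCCTgTTCTTg. Its tissue barcode, with 7 UMIs before correction, passed the limit of 100 only after Syrah, so the set itself depended on the correction. With that limit counted in the original version of both runs, the ratio of the means there was 4.08 (95% interval 3.82 to 4.36). After Syrah the 113 barcodes held 3.32 UMIs per barcode (95% interval 2.99 to 3.67), against 1.75, a ratio of 1.89 (95% interval 1.70 to 2.09), with medians of 1 and 0. Their 375 UMIs were 0.632% of the outside UMIs, and 70 of them lay on 1 barcode.

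The bases of the barcode went with the share of 2 of the genes that were level with distance. On outside barcodes with at most 4 A or T, the gene ranked 6 had 137 of 10000 UMIs (95% interval 111 to 167), and on those with at least 11 it had 514 of 10000 (95% interval 430 to 608). Over tissue the same values were 105 and 122 of 10000. The gene ranked 8 went from 50.4 to 121 of 10000 outside and from 41.0 to 42.2 over tissue. The 2 named genes varied without such an order. From the lowest to the highest class, SMED30010932 had 56.1, 103, 98.7, 71.5 and 60.7 of 10000 UMIs outside, and SMED30027845 had 180, 314, 285, 177 and 162. The intestine list went from 279 to 328 of 10000 outside, with overlapping intervals, and the total of UMIs per outside barcode was 1.99 in the lowest class and 1.85 in the highest. The part of the barcode sequence in these genes' ratios was not tested.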

How the data were processed

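Worm fragments on 1 Slide-seqV2 puck gave 1 library, sequenced in 2 runs. The authors processed the original reads and the Syrah-corrected reads with the Broad WARP Slide-seqV2 pipeline and deposited UMI counts per gene and barcode without normalization, for the first run and for both runs, with 2461559 to 3364828 UMIs per table, aligned to schMedS3 per the methods although the genes carry SMED30 identifiers. Barcode positions, in a unit not stated, were deposited separately. The versions were told apart by the table names.

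UMIs were pooled per class, and shares of genes compared as ratios with exact conditional 95% intervals; sums have Poisson and shares Clopper-Pearson intervals (python 3.11.15, numpy 2.4.6, scipy 1.17.1). These cover counting error only. Genes needed at least 20 expected UMIs, and a fold of 1.5 made a call. Named were piwi-1, mat2a, list genes and the 2 highest and 2 lowest ratios; other genes are given by rank, since no table pairs identifiers with names. No p-value was computed, and the runs were not tested against each other because the second tables include the first run. Lists, members and comparisons were chosen with earlier results of these data known; the far and near pools, connected areas, totals of UMIs, base counts and shown barcodes were chosen after seeing the data, as was the minimum of 5 outside UMIs for piece genes.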

Additional observations from a re-analysis of the deposited data

How the results depend on the processing

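Of 221 values recomputed under 20 alternatives, 121 stayed within the interval of the reported value or within 1.5 times of a value without one, 98 moved and 2 reversed. The 5 alternatives on the open side, on barcodes under 50 UMIs, on barcodes of 9 or more T and on UMIs expected from the tissue share alone were chosen after seeing the data. The ratio of the 10 most abundant genes (1.10) reversed with the UMIs of the original first run (0.888) and of the original version of both runs (0.856), and was 1.04 in the latter without barcodes of 9 or more T. It was 1.14 at a tissue limit of 0.50, 1.08 with 25 neighbours, 1.09 with neighbours counted in the Syrah-processed version of both runs, 1.06 with the UMIs of the Syrah-processed first run and 1.13 on outside barcodes under 50 UMIs.

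The intestine ratio (0.757) stayed below 1 throughout. It was 0.716 at an outside limit of 0.05, 0.877 at a tissue limit of 0.50, 0.826 with 25 and 0.706 with 100 neighbours, 0.704 with Syrah-processed neighbours, 0.684 in the original first run and 0.682 in the original version of both runs. On outside barcodes under 10 UMIs it was 0.714, under 50 it was 0.701, without the open side 0.707 and on the open side alone 0.847. The stem cell ratio (0.840) also stayed below 1, at 0.886 with 25 neighbours, 0.805 with Syrah-processed neighbours, 0.795 without the open side, 0.920 on it alone and 0.880 in the original version without barcodes of 9 or more T.

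The 13 genes higher outside became 5 at an outside limit of 0.05, 23 at a tissue limit of 0.50, 25 with 25 neighbours, 7 with Syrah-processed neighbours, 26 in the original first run, 43 in the original version of both runs, 5 on barcodes under 10 UMIs, 6 under 50, 8 with duplicated barcodes summed, 27 and 5 with at least 10 and 50 expected UMIs, 7 at a fold of 2, 7 without the open side and 5 on it alone. The 67 lower became 35 at an outside limit of 0.05, 29 on barcodes under 10 UMIs, 44 with duplicates summed, 142 and 23 with at least 10 and 50 expected UMIs, 25 at a fold of 2, 43 without the open side and 20 on it alone. The genes tested ranged from 96 to 614, so part of these moves follows from the filter.

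The nearest over farthest ratio of 4.0 moved under every alternative tried on it. It was 1.92 at an outside limit of 0.05, 2.75 at a tissue limit of 0.50, 10.2 with 25 and 3.45 with 100 neighbours, 2.45 with Syrah-processed neighbours, 4.47 in the Syrah-processed first run, 2.88 in the original first run, 2.64 in the original version of both runs and 2.66 in that without barcodes of 9 or more T. With duplicates summed it was 2.51, on barcodes under 50 UMIs 1.92, under 10 it was 1.04, without the open side 1.15 and on it alone 3.02. The ratio for sequence neighbours (1.89) was 2.66 at an outside limit of 0.05, 1.42 at a tissue limit of 0.50, 1.25 with 25 and 1.45 with 100 neighbours, 2.33 with Syrah-processed neighbours, 1.59 in the Syrah-processed first run, 4.02 in the original first run, 4.08 in the original version of both runs and 5.05 in that without barcodes of 9 or more T. It was 2.47 on outside barcodes under 10 UMIs, 2.36 under 50, 2.10 with tissue barcodes of at least 500 UMIs, 1.70 without the open side and 2.23 on it alone.

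The median ratio between pieces (0.996) was 2.04 on barcodes under 10 UMIs. It could not be computed at a tissue limit of 0.50, where no pair of pieces had 500 barcodes, or on the open side alone. SMED30010932 stayed far above 1, from 22.2 without the open side to 133 on it alone. Where no cause is given, the cause was not tested. No paired analysis was possible because the 2 samples are sequencing runs of 1 library, and the tables of both runs include the first. Depth limits genes with few UMIs outside, such as mat2a with 14 and SMED30008009 with 8.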
